A study of Mus musculus with 20 samples.

Results

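The genes described here are the xenobiotic receptors CAR (Nr1i3) and PXR (Nr1i2), their shared partner RXR-alpha (Rxra), 3 Cyp2b genes (Cyp2b9, Cyp2b10 and Cyp2b13), 3 Cyp3a genes (Cyp3a11, Cyp3a13 and Cyp3a25) and Gadd45b. They were chosen by name, as receptors and known targets, and make up 10 of the 49315 genes in the expression table. The livers came from DIO NASH mice, an obesity model of fatty liver with inflammation, all of which were fed the AMLN diet with its high fat, fructose and cholesterol content. One group of 10 mice received the vehicle, hydroxyethyl cellulose (HEC 1%), and the other group of 10 mice received S217879 at 30 mg/kg by mouth once a day, each for 8 weeks. S217879 is a small molecule known to activate NRF2 by blocking its binding to KEAP1. The sources used here do not state sex, age or strain, and there was no group on a normal diet, so levels in healthy liver were not analysed here. One polyA RNA-seq library was made per liver, and levels are given as TPM, transcript abundance scaled to gene length and to a fixed library total.

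CAR and PXR are nuclear receptors that sense drugs, bile acids and steroids, and both bind DNA as heterodimers with RXR-alpha. In mouse liver, CAR activators are known for raising Cyp2b10 and PXR activators for raising Cyp3a11, and the receptors share many targets among cytochromes P450, conjugating enzymes and transporters. CAR is held in the cytosol by chaperones and EGF receptor signalling and moves to the nucleus on activation, so that its mRNA level and its activity are separate quantities, and only mRNA was measured here. Cyp2b9 and Cyp2b13 are known as genes with higher levels in female than in male mouse liver. Gadd45b is a stress-response gene that CAR activators raise and whose protein binds CAR.

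The sequences just upstream of the Cyp2b and Cyp3a genes are shown so that paralogs that varied together can be set beside paralogs that changed in opposite directions. Each is the stretch from 250 to 111 bases before the RefSeq start in GRCm38.p6, written 5′ to 3′ on the gene's strand, and none overlaps an annotated exon. Capitals mark the nuclear receptor motif AGGTCA and its variant AGTTCA on either strand, so that TGACCT and TGAACT are the same letters on the opposite strand. The windows lie at chr7:26173159-26173298 (plus strand) for Cyp2b9, chr7:26061245-26061384 (plus strand) for Cyp2b13, chr7:25897408-25897547 (plus strand) for Cyp2b10, chr5:145879965-145880104 (minus strand) for Cyp3a11 and chr5:146009729-146009868 (minus strand) for Cyp3a25.
Cyp2b9: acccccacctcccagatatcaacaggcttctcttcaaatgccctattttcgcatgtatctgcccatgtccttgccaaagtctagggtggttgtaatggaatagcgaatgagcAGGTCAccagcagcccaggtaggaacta
Cyp2b13: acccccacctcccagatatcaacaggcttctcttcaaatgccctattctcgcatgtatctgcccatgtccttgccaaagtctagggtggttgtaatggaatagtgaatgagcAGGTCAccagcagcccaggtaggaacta
Cyp2b10: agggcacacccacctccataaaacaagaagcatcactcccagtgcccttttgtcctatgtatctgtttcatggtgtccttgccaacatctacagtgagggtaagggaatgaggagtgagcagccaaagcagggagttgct
Cyp3a11: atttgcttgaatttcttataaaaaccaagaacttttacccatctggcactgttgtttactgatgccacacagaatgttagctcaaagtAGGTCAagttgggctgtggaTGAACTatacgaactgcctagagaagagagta
Cyp3a25: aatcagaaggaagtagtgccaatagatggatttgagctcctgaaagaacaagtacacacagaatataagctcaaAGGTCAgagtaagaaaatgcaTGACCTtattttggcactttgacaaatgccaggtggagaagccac
Cyp2b9 and Cyp2b13 were identical at 98.6% of the 140 positions. Counted from 1 at the 5′ end of the window, the changes from Cyp2b13 to Cyp2b9 were C48T and T104C, and both genes carried AGGTCA at the same place. In a global alignment with gaps allowed, Cyp2b10 matched Cyp2b9 at 69.3% of its 140 bases. Cyp2b10 held neither motif in this window, and no gene was searched farther than 250 bases before the start. By the same kind of alignment, Cyp3a11 and Cyp3a25 matched at 54.3% of the 140 bases. The share that unrelated windows would reach with gaps allowed was not measured. Cyp3a11 and Cyp3a25 each held AGGTCA, and the second site was TGAACT in Cyp3a11 and TGACCT in Cyp3a25. Over the full 250 bases before the start, AGGTCA was present in 14% and AGTTCA in 11.8% of 32851 RefSeq windows, so that a single match is common. The core letters of the antioxidant response element, TGACNNNGC, were in 10.2% of those windows and in none of the 12 windows of the 10 genes. Both strands were searched for every motif, and a match is a description of letters, not a bound site.

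No library was identical to another. The deposited TPM carry no read totals, so the depth is unknown; between 24659 and 27744 genes were above 0 in a library. A set of 4 genes whose transcripts resemble ribosomal RNA took 58.2% of the TPM in vehicle replicate 6 and 50.7% in vehicle replicate 7, against 17.4% to 31.4% in the other vehicle libraries and 14.1% to 38.1% with S217879. TPM in a library add up to a fixed total, and the median-of-ratios factors of vehicle replicates 6 and 7 were the low values 0.727 and 0.814. The factors ran from 1.05 to 1.23 in the other vehicle libraries and from 0.844 to 1.15 with S217879. The scale thus tended to be lower with S217879 than in those other vehicle libraries, and the cause was not tested. Each result was therefore also computed after median-of-ratios scaling, which sets each library by its typical gene. That scaling moved the median log2 difference of all 13401 tested genes from -0.12 to 0.02, a shift of 0.14. In these bulk samples, fewer cells of a type and less RNA per cell cannot be told apart.

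All 10 genes passed the minimum mean of 1 TPM and were tested with limma on log2(TPM + 0.5). Cyp2b10, at 0.747 TPM on average in vehicle, passed only through the treated livers, so it could enter the counts only by being higher. With S217879, 5 were higher (Nr1i3, Cyp2b9, Cyp2b10, Cyp2b13 and Cyp3a25) and 1 was lower (Cyp3a11) at a Benjamini-Hochberg adjusted p under 0.05 over all tested genes, and 4 were not called. Over all tested genes, 6.07% (813) were called higher and 23.5% (3151) lower. After median-of-ratios scaling, the split over all genes was 30.8% (4123) higher and 22.7% (3042) lower, and among the 10 genes 6 were higher and 1 lower, with Cyp3a13 added to the higher ones. The 6 genes called on the deposited scale kept their call and direction after that scaling. Without vehicle replicates 6 and 7, the count was 5 higher and 4 lower, where 5.52% of all genes were higher and 54.5% lower. For none of the 10 genes were the groups free of overlap, which was the case for 3.73% of all tested genes.

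**Figure D1:**
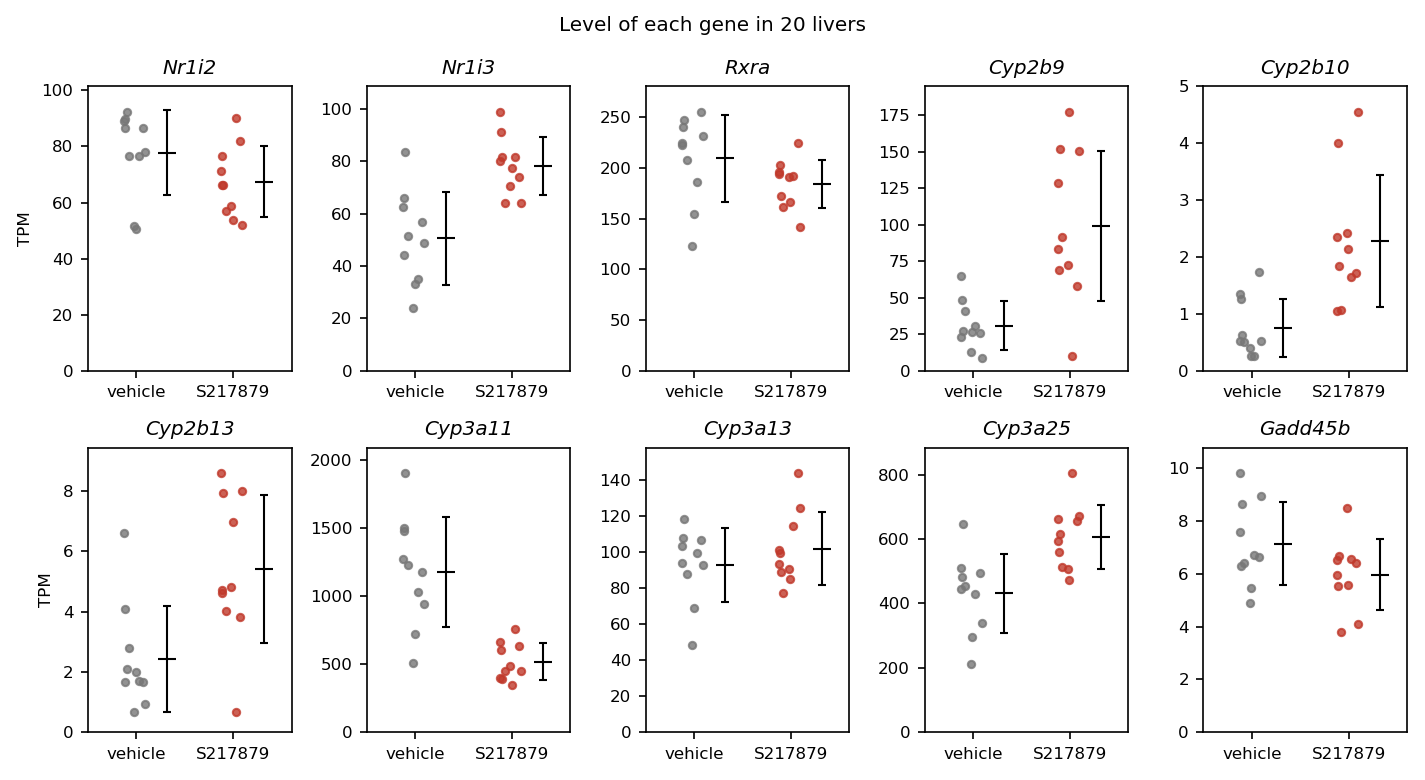
TPM of each gene in the 10 vehicle (grey) and 10 S217879 (red) livers, 1 point per liver, with the mean and SD of each group in black; each panel has its own linear axis from 0. Cyp2b9, Cyp2b10 and Nr1i3 sit higher with S217879 and Cyp3a11 lower, with some overlap in every panel.

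Nr1i3 encodes CAR and is located on chromosome 1 (chr1:171213970-171220701, plus strand, GRCm38). Its level was 23.9, 50.1 and 83.4 TPM (lowest, median and highest) in vehicle livers and 63.9, 78.7 and 98.7 TPM with S217879. All 10 treated livers were above the vehicle median, and 2 were above the highest vehicle liver. Nr1i3 rose 1.62-fold on the log2(TPM + 0.5) scale (log2 difference 0.70, SE 0.16, n = 10 and 10, limma adjusted p = 9.97e-04). Of the bases in Nr1i3 exons, 74.9% also lie in exons of Tomm40l, a mitochondrial import gene on the opposite strand. Tomm40l averaged 7.59 ± 1.67 TPM in vehicle and 8.95 ± 1.78 TPM with S217879 (SD, n = 10 each), a log2 difference of 0.23 with adjusted p = 0.147. After median-of-ratios scaling the difference of Tomm40l was 0.38 (adjusted p = 0.00112). The libraries were made with a stranded kit, but the sources used here do not say whether counting used the strand, so reads of this pair cannot be fully told apart.

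Nr1i2 encodes PXR and is located at chr16:38248323-38294824 on the minus strand. It stood at 50.4, 82.2 and 92.3 TPM in vehicle and at 51.9, 66.2 and 90.3 TPM with S217879. Of the treated livers, 9 were below the vehicle median, while the 2 lowest vehicle livers were replicates 6 and 7. The log2 difference was -0.20 (SE 0.13, adjusted p = 0.264), which did not pass the test; it was -0.34 (adjusted p = 0.00436) without vehicle replicates 6 and 7 and -0.04 (adjusted p = 0.531) after median-of-ratios scaling. Whether Nr1i2 was called thus depended on the scale of the libraries.

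A ratio taken within a liver does not depend on that scale. The log2 ratio of Nr1i3 to Nr1i2 was -0.67 ± 0.30 in vehicle and 0.22 ± 0.24 with S217879 (SD, n = 10 each). The difference was 0.89 (SE 0.12), with a two-sided permutation p = 3e-05 and an adjusted p = 6e-05 over 6 ratios. All 10 treated livers were above the vehicle median ratio, and the groups overlapped. The CAR message was thus the less abundant of the pair in every vehicle liver, where the ratio ran from -1.11 to -0.14, and it reached -0.15 to 0.57 with S217879.

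Rxra, which encodes the partner of both receptors, is located at chr2:27676440-27762957 on the plus strand. Its level was 123, 224 and 255 TPM in vehicle and 141, 192 and 224 TPM with S217879. The groups overlapped over most of their range, and the log2 difference of -0.16 (SE 0.13) did not pass (adjusted p = 0.367). It was -0.30 (adjusted p = 0.00363) without vehicle replicates 6 and 7, and -0.01 (adjusted p = 0.912) after scaling. By mean level in vehicle livers, Rxra at 209 ± 42.7 TPM stood above Nr1i2 at 77.7 ± 15.2 TPM and Nr1i3 at 50.5 ± 17.6 TPM (SD, n = 10 each).

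**Figure D2:**
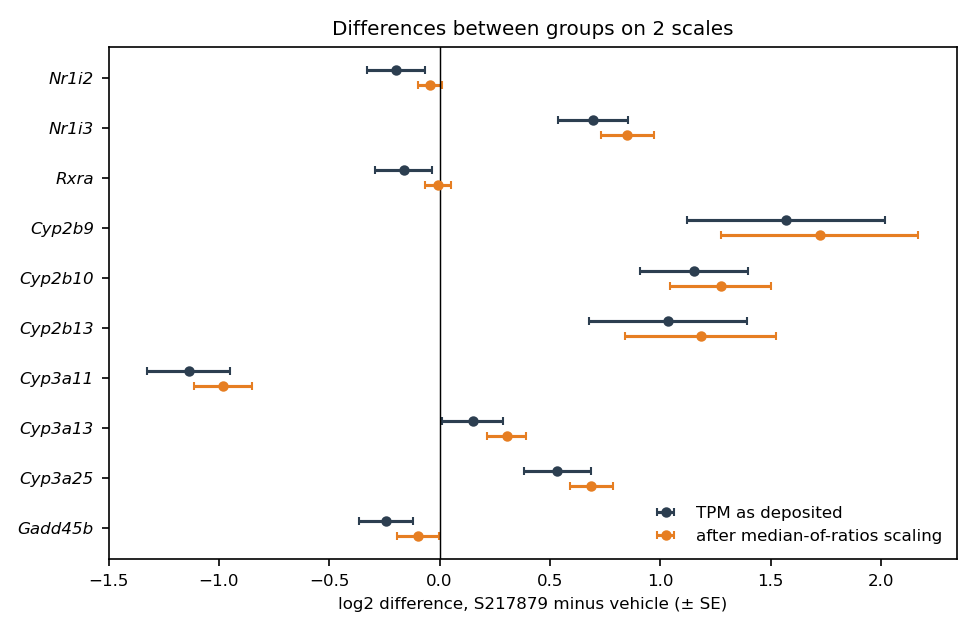
The log2 difference between S217879 and vehicle of each gene with its SE from limma, on TPM as deposited (dark) and after median-of-ratios scaling (orange), 10 livers per group. The 6 called genes keep their direction on both scales, while Nr1i2, Rxra and Gadd45b lie near 0 after scaling.

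The 3 Cyp2b genes, oxidases of drugs and steroids, rose together with S217879. Their summed level was 34.2 ± 18.6 TPM in vehicle and 107 ± 53.7 TPM with treatment (SD, n = 10 each). Cyp2b9 made up 90.7% ± 2.42 of the sum in vehicle and 91.3% ± 4.11 with S217879, so the family was nearly all Cyp2b9 in both groups.

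Cyp2b9 (chr7:26173411-26210661, plus strand) was the most abundant of the 3. It ranged over 8.80, 27.1 and 64.9 TPM in vehicle and 10.2, 87.6 and 177 TPM with S217879. Of the treated livers, 8 exceeded the highest vehicle liver, and 1, S217879 replicate 4, was below 9 of the 10 vehicle livers. The fitted fold change was 2.97 (log2 difference 1.57, SE 0.45, adjusted p = 0.0124); without replicate 4 of S217879 the log2 difference was 1.89 (adjusted p = 2.39e-04).

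Cyp2b10 (chr7:25897620-25926624, plus strand), the standard marker of CAR activation in mouse liver, was low in absolute terms, and it reached the mean of 1 TPM needed for the test only through the treated livers. It stood at 0.261, 0.529 and 1.73 TPM in vehicle and at 1.06, 1.996 and 4.55 TPM with S217879. All 10 treated livers were above the vehicle median and 6 above the highest vehicle liver. Cyp2b10 rose 2.22-fold (log2 difference 1.15, SE 0.24, adjusted p = 0.0013); at this level the added 0.5 TPM shrinks the fold, and the group means were 0.747 ± 0.511 and 2.28 ± 1.16 TPM (SD, n = 10 each).

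Cyp2b13 (chr7:26061497-26096197, plus strand) had 0.680, 1.86 and 6.62 TPM in vehicle and 0.674, 4.77 and 8.58 TPM with S217879. The lowest of all 20 livers was S217879 replicate 4, just below vehicle replicate 6 at 0.680 TPM. Of the 10 treated livers, 9 were above the vehicle median. The rise was 2.05-fold (log2 difference 1.03, SE 0.36, adjusted p = 0.0366). This call was the least stable of the 6: it was lost in 12 of 20 fits that left out 1 library (vehicle replicates 3, 4, 5, 8 and 9 and S217879 replicates 1, 3, 5, 6, 7, 8 and 10), with adjusted p between 0.0509 and 0.0695. Without S217879 replicate 4 the log2 difference was 1.27 (adjusted p = 0.00207).

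Cyp2b9 and Cyp2b13 also varied together from liver to liver. Their deviations from the group means after median-of-ratios scaling correlated with r = 0.92 over 20 livers, r = 0.90 within vehicle and r = 0.93 within S217879. Without S217879 replicate 4 it was 0.83 over 19 livers. Cyp2b10 had r = 0.35 with Cyp2b9 and 0.34 with Cyp2b13. Its level was low, at 0.261 to 1.73 TPM in vehicle and 1.06 to 4.55 TPM with S217879, and 0.5 was added before the log. The part of that in its r was not tested. These values are descriptions, and whether the upstream windows have a part in them was not tested. The transcripts share sequence: 10.8% of the 50-base stretches of the Cyp2b9 transcript are also in Cyp2b13, and 27.3% of those of Cyp2b13 are in some other gene, so reads could be split or lost between them, and the part of that in the correlation was not tested.

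Ratios between the Cyp2b genes were compared within each liver. The log2 ratio of Cyp2b9 to Cyp2b13 was 3.42 ± 0.30 in vehicle and 3.96 ± 0.51 with S217879 (SD, n = 10 each), a difference of 0.54 (SE 0.19, permutation p = 0.011, adjusted p = 0.017). It was above the vehicle median in 8 of 10 treated livers. For Cyp2b9 to Cyp2b10 the difference was 0.42 (SE 0.44, adjusted p = 0.44), and for Cyp2b13 to Cyp2b10 it was -0.12 (SE 0.36, adjusted p = 0.75). These ratios had 0.5 added to each TPM, which shifts ratios of genes as low as Cyp2b10. With 0.1 added, the limma log2 differences were 1.58 for Cyp2b9, 1.57 for Cyp2b10 and 1.17 for Cyp2b13. Over 23 alternatives, the difference for Cyp2b9 to Cyp2b10 ran from 0.0155 to 0.71. It ran from -0.40 to 0.0911 for Cyp2b13 to Cyp2b10. For Cyp2b9 to Cyp2b13 it ran from 0.42 to 0.64, with permutation adjusted p up to 0.046.

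**Figure D3:**
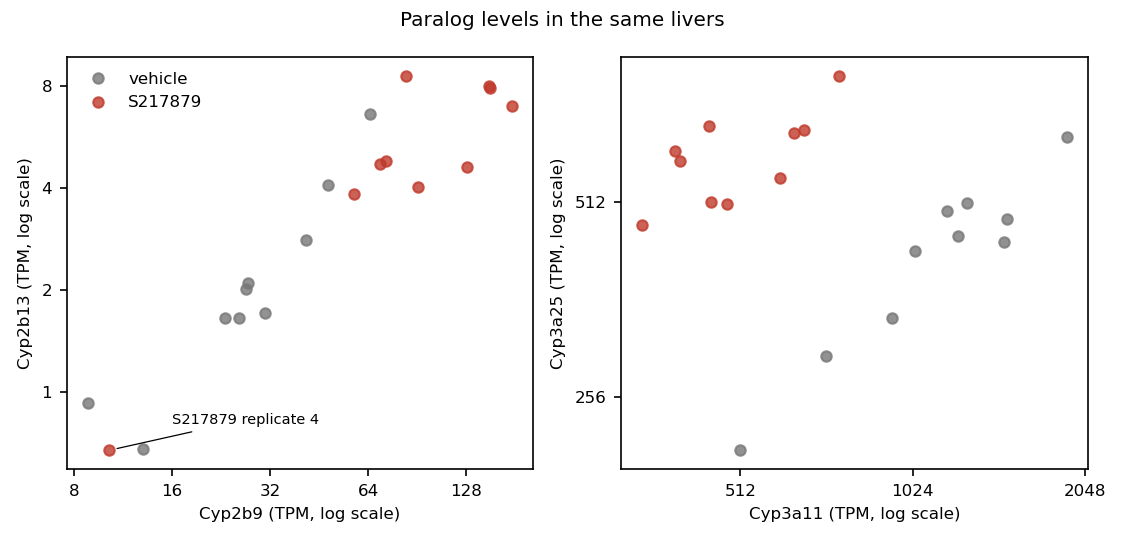
TPM of Cyp2b13 against Cyp2b9 (left) and of Cyp3a25 against Cyp3a11 (right) in the same livers, 1 point per liver, vehicle in grey and S217879 in red, all axes on a log scale. The Cyp2b pair falls along 1 diagonal with S217879 replicate 4 at the low end, while the Cyp3a pair forms 2 separate clouds.

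The Cyp3a genes, whose enzymes oxidise many drugs, steroids and bile acids, changed in opposite directions. Cyp3a11 fell, Cyp3a25 rose and Cyp3a13 was not called on the deposited scale. The sum of the 3 was 1700 ± 537 TPM in vehicle and 1226 ± 231 TPM with S217879 (SD, n = 10 each). Within that sum, Cyp3a11 made up 68.7% ± 2.59 in vehicle and 41.9% ± 4.66 with S217879, and Cyp3a25 made up 25.7% ± 2.11 and 49.7% ± 4.08. The most abundant of the 3 was therefore Cyp3a11 in vehicle and, on average, Cyp3a25 with S217879.

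Cyp3a11 (chr5:145854426-145879964, minus strand), the standard marker of PXR activation, had 511, 1201 and 1900.5 TPM in vehicle and 346, 469.9 and 761 TPM with S217879. All 10 treated livers were below the vehicle median and 6 were below the lowest vehicle liver, which was replicate 6. Cyp3a11 fell 2.20-fold (log2 difference -1.14, SE 0.19, adjusted p = 2.82e-05). The difference was -0.98 after median-of-ratios scaling and -1.35 without vehicle replicates 6 and 7.

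Cyp3a25 (chr5:145977194-146009618, minus strand) had 212, 449 and 646 TPM in vehicle and 473, 604 and 803 TPM with S217879. All 10 treated livers were above the vehicle median and 4 were above the highest vehicle liver. Cyp3a25 rose 1.45-fold (log2 difference 0.53, SE 0.15, adjusted p = 0.00617). Its difference was 0.35 (adjusted p = 0.00882) without vehicle replicates 6 and 7 and 0.69 (adjusted p = 4.37e-06) after scaling.

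Cyp3a13 (chr5:137892932-137921619, minus strand), a Cyp3a gene that lies apart from the main cluster and is also active in intestine, had 48.5, 96.8 and 119 TPM in vehicle and 77.2, 96.7 and 144 TPM with S217879. The medians of the groups were nearly equal and 5 treated livers lay on each side of the vehicle median. The log2 difference was 0.15 (SE 0.14, adjusted p = 0.447). It passed as higher after median-of-ratios scaling (0.30, adjusted p = 0.00668) and was -0.01 (adjusted p = 0.931) without vehicle replicates 6 and 7, so its call depended on the scale and its sign on those libraries.

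The Cyp3a ratios separated the groups completely. The log2 ratio of Cyp3a25 to Cyp3a11 ran from -1.73 to -1.25 in vehicle and from -0.11 to 0.64 with S217879, a difference of 1.67 (SE 0.10, permutation p = 2e-05, adjusted p = 6e-05). The log2 ratio of Cyp3a13 to Cyp3a11 ran from -3.9965 to -3.33 in vehicle and from -2.81 to -1.86 with S217879, a difference of 1.29 (SE 0.13, adjusted p = 6e-05). In every treated liver both ratios were above every vehicle liver, including vehicle replicates 6 and 7. Across livers after scaling, Cyp3a11 and Cyp3a25 had r = 0.87 within vehicle and r = 0.24 within S217879, given as a description.

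**Figure D4:**
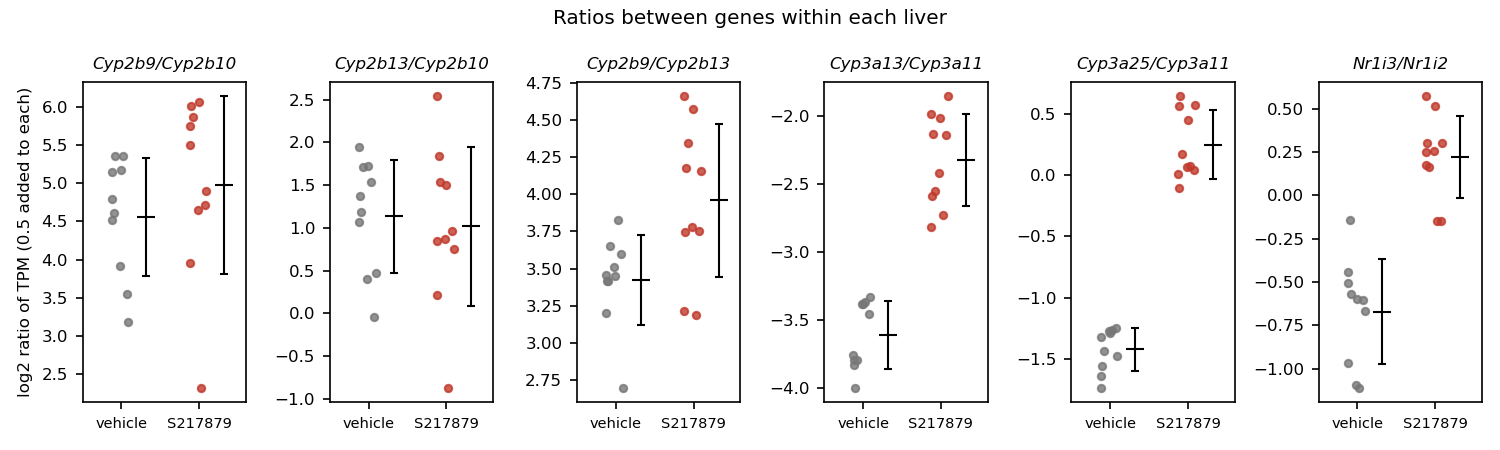
The log2 ratio of TPM between pairs of genes (0.5 added to each TPM) in each liver, vehicle in grey and S217879 in red, with the mean and SD of each group in black; each panel has its own axis. The groups do not overlap for Cyp3a13/Cyp3a11 and Cyp3a25/Cyp3a11, and they overlap for the other 4 ratios.

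Of 8 further Cyp2b and Cyp3a genes, only Cyp3a59 reached 1 TPM on average. It had 15.3, 29.8 and 46.7 TPM in vehicle and 44.3, 63.2 and 70.4 TPM with S217879, and it rose 2.03-fold (log2 difference 1.02, SE 0.15, adjusted p = 1.21e-06). Cyp3a25 and Cyp3a59 share 25.01% of the 50-base stretches of the Cyp3a25 transcript, so reads may have been split between them. Among the rare family members, Cyp3a57 averaged 0.355 ± 0.135 TPM in vehicle and 0.0547 ± 0.0388 TPM with S217879 (SD, n = 10 each), with groups that did not overlap. Cyp3a16 averaged 0.217 ± 0.0948 and 0.0531 ± 0.0518 TPM, and Cyp3a44 averaged 0.288 ± 0.140 and 0.0828 ± 0.0425 TPM (SD, n = 10 each). These 3 lay under the minimum of 1 TPM. They were called lower with a minimum of 0.1 TPM, with limma adjusted p of 5.05e-06 for Cyp3a57, 7.46e-04 for Cyp3a16 and 0.00101 for Cyp3a44. They were also called lower with no minimum, with adjusted p of 1.65e-05 for Cyp3a57, 0.00114 for Cyp3a16 and 0.00213 for Cyp3a44, where 11.9% of 36279 genes were lower. Of the 50-base stretches of Cyp3a16, 6.13% are also in Cyp3a11, which fell and is far more abundant, and the part of shared reads was not tested.

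Gadd45b (chr10:80930073-80932204, plus strand) had 4.89, 6.67 and 9.79 TPM in vehicle and 3.80, 6.19 and 8.46 TPM with S217879. Of the treated livers, 9 were below the vehicle median, within a largely shared range. The log2 difference of -0.24 (SE 0.12) did not pass (adjusted p = 0.137), was -0.10 (adjusted p = 0.392) after scaling, and passed as lower without vehicle replicates 6 and 7 (-0.34, adjusted p = 0.0194). None of the 4 genes in the Gadd45 list, which also held Gadd45a, Gadd45g and Gadd45gip1, was called by limma on the deposited scale, 0 had an unadjusted p under 0.05 and 0 passed a Wilcoxon rank-sum test. Gadd45gip1 was called higher after median-of-ratios scaling (log2 difference 0.34, adjusted p = 1.04e-05). Gadd45a averaged 20.1 ± 7.31 TPM in vehicle and 16.5 ± 4.996 TPM with S217879, and Gadd45g 16.9 ± 13.5 and 19.9 ± 12.7 TPM (SD, n = 10 each).

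Among 29 other genes known as CAR or PXR targets, 25 were tested; 14 rose and 3 fell, with a median log2 difference of 0.55 against -0.12 over all tested genes. Over all tested genes, 6.07% were higher and 23.5% lower on the deposited scale. Among the 25 targets the count was 16 and 3 after median-of-ratios scaling, where 30.8% of all genes were higher and 22.7% lower. It was 13 and 4 without vehicle replicates 6 and 7, where the shares were 5.52% and 54.5%. The strongest rise was in Abcc4, an efflux pump of the basolateral membrane, with 3.03 ± 0.783 TPM in vehicle and 129 ± 39.1 TPM with S217879 (SD, n = 10 each; log2 difference 5.13, SE 0.21, adjusted p = 1.24e-13). Cyp2c37, an enzyme that oxidises arachidonic acid, rose 2.75-fold (log2 difference 1.46, SE 0.35, adjusted p = 0.00318). The strongest falls were in Slco1a4, an uptake carrier of bile acids and drugs, with 15.7 ± 4.21 TPM in vehicle and 4.12 ± 1.47 TPM with S217879 (SD, n = 10 each; log2 difference -1.84, SE 0.18, adjusted p = 6.98e-08), and in the cell cycle inhibitor Cdkn1a (log2 difference -1.04, SE 0.15, adjusted p = 2.31e-06). Many of these genes are also known targets of other factors, NRF2 among them. The list was drawn up with earlier results of these data known, so its counts are a description. Of the Cyp2c family, which shares 5 tested genes with that list, 11 were tested. On the deposited scale 7 rose and 2 fell, beside 6.07% higher and 23.5% lower over all genes. The falls were in Cyp2c38 (log2 difference -0.56, limma adjusted p = 0.00118) and Cyp2c67 (-0.38, limma adjusted p = 0.0403).

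Of 29 partners and regulators of the receptors, all tested, 1 rose and 5 fell on the deposited scale, where 6.07% of all genes were higher and 23.5% lower. The counts were 5 and 5 after scaling and 1 and 19 without vehicle replicates 6 and 7, where 54.5% of all genes were lower. Prkaa2, a catalytic subunit of the energy sensor AMPK, rose from 19.3 ± 3.69 to 35.1 ± 5.78 TPM (SD, n = 10 each; log2 difference 0.85, SE 0.12, adjusted p = 8.08e-07), with groups that did not overlap. Egfr, the receptor whose signalling keeps CAR in the cytosol, averaged 41.9 ± 19.8 TPM in vehicle and 20.5 ± 16.7 TPM with S217879 and fell (SD, n = 10 each; log2 difference -1.18, SE 0.35, adjusted p = 0.0162). Of 7 other tested xenobiotic sensors, 2 fell and 5 were not called, beside 23.5% lower over all genes. The counts were 1 higher and 3 lower after scaling and 5 lower without vehicle replicates 6 and 7. On the deposited scale the falls were in Nfe2l2, which encodes NRF2, with a log2 difference of -0.89 (adjusted p = 3.08e-07), and in the AHR partner Arnt with -0.42 (adjusted p = 0.00393).

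Since Cyp2b9 and Cyp2b13 are female-biased genes, sex-biased liver genes were counted too. Of 12 tested female-biased genes, these 2 included, 4 rose and 4 fell; of 21 tested male-biased genes, 3 rose and 7 fell, beside 6.07% higher and 23.5% lower over all genes. Cyp2a4, a female-biased steroid hydroxylase, rose from 15.3 ± 7.29 to 905 ± 281 TPM (SD, n = 10 each; log2 difference 5.90, SE 0.25, adjusted p = 2.44e-13), while Cyp17a1 fell (log2 difference -2.49, SE 0.30, adjusted p = 3.83e-06). Of the male-biased genes, Ugt2b1 rose (log2 difference 1.73, adjusted p = 1.18e-09) and Cyp2d9 rose (1.11, adjusted p = 4.32e-05), and Serpina1e fell (-2.18, adjusted p = 8.67e-04) as did Mup3 (-2.001, adjusted p = 2.72e-05). Cyp2a4, Mup3, Serpina1e and the Cyp2c genes belong to multigene families; sequence shared within these was not measured here. Both lists held changes in both directions, as the female-biased list also did after scaling (5 and 4) and without vehicle replicates 6 and 7 (4 and 4). For the male-biased list the counts were 5 and 7 after scaling and 3 and 10 without those libraries.

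On the genome, the Cyp2b genes lie among other cytochrome P450 genes on chromosome 7. Between them and within 100 kb on either side, 25 genes were annotated and 5 were tested, and all 5 were higher with S217879: the 3 Cyp2b genes, Cyp2a4 and Gm42375, an antisense RNA whose annotated span overlaps that of Cyp2a4. Of these 5, Cyp2b10 and Gm42375 averaged under 1 TPM in vehicle and passed the minimum only through the treated livers, so they could enter this count only by being higher. Around Cyp3a11 and Cyp3a25 on chromosome 5, 12 genes were annotated and 3 were tested, of which Cyp3a25 and Cyp3a59 were higher and Cyp3a11 was lower. Around Cyp3a13, 17 genes were annotated and 7 were tested; 4 (Pilra, Pilrb1, Pilrb2 and Gm15502) were lower and the other 3, Cyp3a13 among them, were not called. After median-of-ratios scaling 2 were higher (Cyp3a13 and Azgp1) and 2 lower, as Pilrb1 and Pilrb2 no longer passed. Over all tested genes, 6.07% were higher and 23.5% lower as deposited, and 30.8% and 22.7% after scaling. The genes at each place are few and were not chosen at random, and neighbouring paralogs share sequence.

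**Figure D5:**
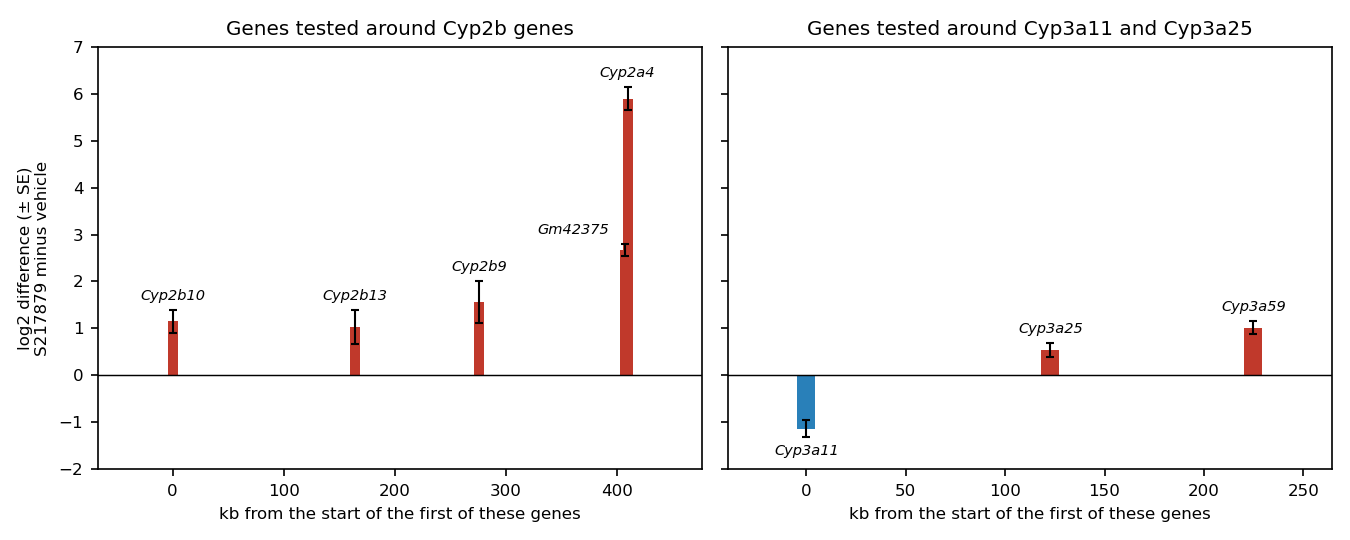
The log2 difference with its SE from limma (10 livers per group) of every tested gene between or within 100 kb of the Cyp2b genes (left) and of Cyp3a11 and Cyp3a25 (right), placed by distance in kb from the start of the first of these genes; bars start at 0. All 5 genes on the left are higher, with Cyp2a4 at 5.90, and on the right Cyp3a11 is lower beside the higher Cyp3a25 and Cyp3a59.

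Likeness to other genes was measured as the correlation of deviations from the group means over the 20 livers after scaling, as a description. The gene most like Nr1i3 was Pbld2 (r = 0.91), followed by Proc, the anticoagulant protein C (r = 0.90), and Mief2 (r = 0.89). Rxra was most like Tfr2, an iron-sensing receptor (r = 0.89), and Nr1i2 most like Tmem177 (r = 0.83). Outside the group described here, Cyp2b9 and Cyp2b13 shared the same top gene, Wrap53 (r = 0.81 and 0.83), and Cyp2b10 was most like Tmem129 (r = 0.83). Cyp3a11 was most like the methyltransferase gene Inmt (r = 0.76), Cyp3a13 most like Serping1 (r = 0.87), Cyp3a25 most like Slc35d2 (r = 0.85) and Gadd45b most like Comtd1 (r = 0.73).

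Whether receptor and target mRNA rose and fell together within a group was tested in 14 relations after scaling, and none passed after Benjamini-Hochberg adjustment; 1 had an unadjusted p under 0.05 by Pearson's r and 3 by Spearman's rho. The highest Pearson r was that of Nr1i2 with Cyp3a11 in vehicle livers, with r = 0.65 (permutation p = 0.0428, adjusted p = 0.356) and Spearman rho = 0.62 (permutation p = 0.0605, adjusted p = 0.212). Without the 2 livers farthest from the median of Nr1i2, r was 0.54. By Spearman's rho, 3 other relations in vehicle livers were higher: Nr1i2 with Cyp3a25 (rho = 0.79, permutation p = 0.00849, adjusted p = 0.119), Nr1i2 with Cyp3a13 (rho = 0.75, permutation p = 0.0179, adjusted p = 0.125) and Nr1i3 with Cyp2b10 (rho = 0.68, permutation p = 0.0352, adjusted p = 0.164). In the S217879 group, Nr1i2 with Cyp3a11 had r = 0.53 (permutation p = 0.118, adjusted p = 0.356). Nr1i3 with Cyp2b10 had r = 0.52 in vehicle (permutation p = 0.129, adjusted p = 0.356) and 0.30 with S217879 (permutation p = 0.396, adjusted p = 0.616). Leaving out the 2 livers farthest from the median of the receptor moved r in both directions. For Nr1i3 with Cyp2b10, r became 0.84 in vehicle and 0.07 with S217879. For Nr1i2 with Cyp3a11 with S217879 it became 0.71. On the deposited scale, where vehicle replicates 6 and 7 were the 2 lowest vehicle livers for Nr1i2 and all 3 Cyp3a genes, 4 of the 14 relations passed. Nr1i2 in vehicle livers had r = 0.91 with Cyp3a11 (permutation test, adjusted p = 0.00287), 0.91 with Cyp3a13 (adjusted p = 0.00453) and 0.90 with Cyp3a25 (adjusted p = 0.00287), and with S217879 it had r = 0.80 with Cyp3a11 (adjusted p = 0.0224).

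Markers of other cell types moved with the groups, and their part in the results above was not tested. Over all tested genes, 6.07% were higher and 23.5% lower as deposited, and 30.8% and 22.7% after scaling. All 8 tested stellate cell and fibroblast markers were lower with S217879, with a summed level of 274 to 508 TPM in vehicle and 203 to 387 TPM with treatment. Of 8 macrophage markers 6 were lower, with sums of 569.6 to 1053 and 408 to 748 TPM, and of 4 tested cholangiocyte markers 2 were lower, with sums of 178 to 466.4 and 89.4 to 243 TPM. Of 6 endothelial markers 3 were higher, with sums of 64.0 to 135 and 115 to 154 TPM; 5 were higher after scaling, and 2 were higher and 1 lower without vehicle replicates 6 and 7. Of 8 hepatocyte markers 1 (Ttr) was higher and 1 (Apoa1) lower, and without vehicle replicates 6 and 7 1 was higher and 7 were lower, where 54.5% of all genes were lower. None of 5 tested lymphocyte markers was called by limma, by a Wilcoxon rank-sum test or at an unadjusted p under 0.05. Since Cyp3a13 is also active in intestine, intestinal markers were read as well: Cdx2 was at 0 in all 20 livers, 2 of 10 markers reached 1 TPM, and 1 of them, Lgals4, was lower. Of 6 adipocyte markers 2 were tested and 1 (Fabp4) was lower, and none of 6 pancreatic markers reached 1 TPM.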

How the data were processed

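Total RNA from 20 livers was sequenced as stranded polyA libraries, per the labels' protocols. Trimmomatic 0.36, STAR 2.5.2b and featureCounts of Subread 1.5.2 with GRCm38 are named in the submitters' processing notes; the sources used here do not state settings or use of strand. The deposited signal values are TPM computed by the authors, each library adding up to 1000000. Columns were matched to livers by animal number. Gene symbols were taken from GENCODE release M21, which held 48970 of the 49315 identifiers.

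From the deposited values, log2(TPM + 0.5) was fitted with limma 3.58.1 (trended, robust eBayes, two-sided) for the 13401 genes averaging 1 TPM or more, with Benjamini-Hochberg adjustment at 0.05. All 10 genes passed that minimum, so the test fixed for genes below it was not needed. Ratios and relations used 100000 permutations. Each liver is a separately numbered animal. The test was tried on simulated data for this comparison, with 13401 genes. It found 67.2% of 61 genes changed by 0.5 log2 units, 94% of 67 changed by 1 and 98.6% of 72 changed by 2. It called 4 of 13201 unchanged genes. Noise was drawn independently for each gene and library, so shifts shared by a whole library were not simulated. The rate of false calls under such shifts was not tested.

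The genes and lists were chosen with earlier results of these data known. Named are the 10 genes, in each list the called genes with the 2 highest and 2 lowest differences (in a list without calls, the 2 most abundant), for each of the 10 genes the 3 most alike, and neighbours within 100 kb; not all so named are described, and some outside the rule, such as other list members and rare family members, were named after their values were seen. Ces6 and Cyp2c44 were not matched by symbol. Promoter sequences are from RefSeq (GRCm38.p6), and shared sequence was counted over 50-base stretches of GENCODE transcripts.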

Additional observations from a re-analysis of the deposited data

Results flagged for a closer look

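Of 32 sets of 10 livers examined for a single value far from the rest (each of the 10 genes and 6 ratios in each group), 2 stood out, where chance alone gives about 1 in 20. In the S217879 group, the lowest Cyp2b9 value, 10.2 TPM in replicate 4, lay apart from the other 9: its gap to the next liver was 0.603 of the group's range on the log2 scale, above the 95% critical value of Dixon's test. The lowest Cyp2b13 value, 0.674 TPM in the same replicate 4, had a gap of 0.639 of the range. The 2 genes share sequence and vary together, so these are not independent observations. In the same liver Cyp2b10 was at 1.65 TPM, within the range of its group, and Cyp3a25 at 803 TPM and Nr1i2 at 90.3 TPM were the highest of their group on the deposited scale. This library also had the lowest share of ribosomal RNA-like genes (14.1%) of its group, and its median-of-ratios factor was 1.15.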

How the results depend on the processing

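Nr1i3, Cyp2b9, Cyp3a11 and Cyp3a25 kept their direction and call in all 35 alternatives and Cyp2b10 in all 34 that could test it; Cyp2b10 and Cyp2b13 fall below a minimum of 5 TPM. Cyp2b13 kept its call in 22 of 34. Members called higher numbered 3 at a minimum of 5 TPM, and 4 to 5 with 1 library left out; members called lower numbered 3 with quantile normalization, 4 after rescaling without the 4 ribosomal RNA-like genes, 4 with array weights, 4 without vehicle replicates 6 and 7, and 1 to 2 with 1 library left out (2 without vehicle replicate 6, where Gadd45b passed with adjusted p = 0.0471). Under quantile normalization, Nr1i2 (-0.22, limma adjusted p = 0.00181) and Rxra (-0.29, limma adjusted p = 7.57e-05) passed as lower. After rescaling without the ribosomal RNA-like genes, Nr1i2 (-0.34, limma adjusted p = 9.44e-05), Rxra (-0.31, 1.09e-04) and Gadd45b (-0.38, 0.00298) passed as lower. With array weights Nr1i2 (-0.31, limma adjusted p = 4.88e-04), Rxra (-0.30, 3.92e-04) and Gadd45b (-0.26, 0.0261) did too. Over all genes, those called lower numbered 1642 at a minimum of 5 TPM, 8576 after the rescaling, 8023 with array weights, 7303 without vehicle replicates 6 and 7, and 2656 to 5195 with 1 library left out (5195 without vehicle replicate 6). Those called higher numbered 4123 after median-of-ratios scaling, 3536 with quantile normalization and 707 to 875 with 1 library left out; with median-of-ratios scaling they numbered 3593 without vehicle replicates 6 and 7 and 4093 without S217879 replicate 4, both chosen after seeing the data. The cause of these shifts was not tested. Signs turned for Cyp3a13 (-0.0737 with array weights and -0.0109 without vehicle replicates 6 and 7), for Rxra (0.0131 after median-of-ratios scaling without S217879 replicate 4) and for the ratio of Cyp2b13 to Cyp2b10 (0.0225 with 1 added to each TPM, -0.288 to 0.0911 with 1 library left out, the highest without S217879 replicate 4). On the deposited scale, relations turned for Nr1i3 with Gadd45b in vehicle (r = 0.57) and, with S217879, for Nr1i3 with Cyp2b9 (-0.10), Nr1i3 with Cyp2b13 (-0.13) and Nr1i2 with Cyp3a13 (0.46, and 0.48 after scaling without the 2 livers farthest from the median). No paired analysis was possible because the labels number each animal separately and the groups share no animal, litter or batch number. Read depth is unknown, so counting error at levels near 1 TPM, as for Cyp2b10, cannot be given.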

Other observations

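CAR, the Cyp2b genes and Cyp3a11 are known to be strongest in hepatocytes around the central vein, so genes of the liver zones were counted as well. Over all tested genes, 6.07% were higher and 23.5% lower on the deposited scale. Of 14 tested pericentral genes, 2 rose and 7 fell with S217879, with a median log2 difference of -0.39. Cyp1a2, a target of the aryl hydrocarbon receptor, rose from 149 ± 57.9 to 1411 ± 384 TPM (SD, n = 10 each; log2 difference 3.30, SE 0.25, limma adjusted p = 2.28e-09), and Oat, an ornithine-handling enzyme, fell (log2 difference -0.997, SE 0.17, adjusted p = 2.44e-05). Of 15 tested periportal genes, 5 rose and 3 fell, with a median of -0.08. Cyp2f2 rose from 449.7 ± 196 to 1903 ± 175 TPM (SD, n = 10 each; log2 difference 2.21, SE 0.21, adjusted p = 1.26e-08), and Igfbp2 fell (log2 difference -1.29, SE 0.20, adjusted p = 1.70e-05). Without vehicle replicates 6 and 7 the counts were 2 and 8 for pericentral genes and 4 and 8 for periportal genes. In that fit 5.52% of all genes were higher and 54.5% lower. After median-of-ratios scaling the counts were 4 and 7, and 6 and 3, where 30.8% of all genes were higher and 22.7% lower.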
